A study of Mus musculus with 6 samples.

Results

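A set of 10 genes of the monocyte and macrophage lineage was followed in stem-cell-enriched mouse bone marrow. They were chosen by symbol (Ly86, Ly6c2, Ccr2, Cx3cr1, Cd68, Lyz2, F13a1, Adgre1, C1qa and C1qb), and all 10 were found among the 50763 gene symbols of the count table. The cells were CD34- KSL cells, a lineage-negative gate with c-Kit and Sca-1 but without CD34 on the surface, in which long-term haematopoietic stem cells (HSC) are concentrated. All mice carried Tal1-tTA, an activator that doxycycline switches off and that is expressed from Tal1 sequences, and TRE-EGFR-tr, the transgene it turns on. Mice without doxycycline made a truncated EGFR (epidermal growth factor receptor) with no kinase domain in addition to the normal protein (EGFR-DN, n = 3). Mice given 0.2 g/L doxycycline in drinking water made only the normal protein (EGFR-WT, n = 3). Doxycycline and the truncated receptor therefore cannot be told apart as the source of a difference. The age of the mice and the number of animals behind each library are not given in the labels, so p-values here reflect sample-to-sample spread alone, and that spread may be technical.

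Monocytes arise from HSC through progenitors that switch on the factors PU.1 and IRF8. Classical monocytes carry Ly6C, leave the marrow through the chemokine receptor CCR2 and make coagulation factor XIII A, whereas patrolling monocytes carry the fractalkine receptor CX3CR1. Resident macrophages of marrow and other tissues make the adhesion receptor encoded by Adgre1 and the complement component C1q. Long-term HSC are not myeloid cells, yet single myeloid transcripts are known in the stem and progenitor compartment at low levels.

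Total estimated counts were between 24073204 and 36032504 per library, and levels are given as CPM, the count scaled to the library's size with edgeR's trimmed-mean (TMM) factor. A floor of 3 counts lay between 0.0799 and 0.152 CPM, depending on the library. Egfr stood at 0.1599 to 0.237 CPM in EGFR-WT and at 50.3 to 135 CPM in EGFR-DN, so the receptor gene separated the groups as labelled. The EGFR-WT values were 6 counts in each library, close to the floor. Whether reads of the transgene were counted to Egfr is not stated in the labels. The sort markers Kit (736 to 1962 CPM) and Ly6a, the Sca-1 gene (46.7 to 78.4 CPM), were present in all 6 libraries. Cd34 transcript was also present, at 318 to 569 CPM. EGFR-DN replicate 3 stood apart, with 25.4% of its counts in 8 rRNA-like genes against 4.71% to 6.15% in the other 5 libraries, and the values without it stand beside the results below.

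A pair of lysozyme genes and a pair of Ly6 genes are near-identical, which bears on how the values can be read. Lyz2 and Lyz1 have 447 coding bases each and are 95.1% identical, with 22 mismatches. Ly6c2 and Ly6c1 have 396 coding bases each and are 97.7% identical, with 9 mismatches. The stretches below, from the GENCODE M21 transcripts, are bases 7 to 156 of the lysozyme coding sequences and bases 1 to 150 of the Ly6c coding sequences, with mismatches within each pair in capitals (15 and 6). They are shown because a read of 75 bases can be assigned to 1 gene of the pair only where such a letter falls in it.
Lyz2: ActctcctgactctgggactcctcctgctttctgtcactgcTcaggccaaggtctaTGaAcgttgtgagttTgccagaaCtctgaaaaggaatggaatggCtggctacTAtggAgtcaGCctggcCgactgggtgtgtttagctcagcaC
Lyz1: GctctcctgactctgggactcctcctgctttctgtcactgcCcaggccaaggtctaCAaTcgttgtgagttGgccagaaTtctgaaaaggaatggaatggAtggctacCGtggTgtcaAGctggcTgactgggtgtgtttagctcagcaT
Ly6c2: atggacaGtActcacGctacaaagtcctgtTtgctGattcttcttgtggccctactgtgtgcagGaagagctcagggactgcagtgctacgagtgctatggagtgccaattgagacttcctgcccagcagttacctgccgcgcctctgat
Ly6c1: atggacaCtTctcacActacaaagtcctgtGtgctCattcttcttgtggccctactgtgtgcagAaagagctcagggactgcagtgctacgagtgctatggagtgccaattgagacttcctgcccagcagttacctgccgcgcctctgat

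Of all 75-base windows of the Ly6c2 transcript, 21.9% occurred also in Ly6c1, and 5.96% of those of Lyz2 occurred in Lyz1. For Cx3cr1 0.113% were shared with Gm33858, a gene on the opposite strand. Ly86, Cd68, F13a1, Adgre1, C1qa and C1qb shared no window with another gene. In the deposited counts, the values of Lyz2 and Lyz1 and of Cx3cr1 and Gm33858 are mostly fractional but sum to whole numbers in all 6 libraries (within 0.015). Lyz1 held 2.80% to 3.42% of the lysozyme pair, Gm33858 0% to 11.5% of its pair, and Ly6c1 5.2% to 11.9% of the Ly6c pair. For Ly6c2 no partner gave whole sums. The 2 genes of a pair were therefore also summed and tested again. F13a1 shares 74 exon bases with the antisense gene Gm30489, and the library kit does not mark strand.

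In the EGFR-WT libraries the 10 genes covered a wide range of levels. Per kilobase of the longest coding transcript, Lyz2, the lysozyme of macrophages and granulocytes, led at 161 ± 8.16 CPM per kb (SD, n = 3). Cd68, a glycoprotein of lysosomes and endosomes in phagocytes, followed at 8.02 ± 1.70, and Ly6c2 at 6.76 ± 0.5 CPM per kb. The ranges of these 2 genes overlapped. Ly86, whose product MD-1 escorts the Toll-like protein RP105 to the cell surface, was at 2.37 ± 0.274 CPM per kb. F13a1, the factor XIII A subunit that cross-links fibrin, was at 1.84 ± 0.198 and Ccr2 at 1.08 ± 0.433 CPM per kb. Cx3cr1 was at 0.313 ± 0.0728 CPM per kb. Ly86, F13a1, Ccr2 and Cx3cr1 kept this order without overlap between neighbours. C1qb, C1qa and Adgre1 lay lowest, at 0.0826 ± 0.0584, 0.0782 ± 0.0488 and 0.0554 ± 0.0304 CPM per kb, with overlapping ranges. Transcripts of the stem-cell gate thus held lysozyme message at a level far above the other 9 genes, and the macrophage genes close to the floor.

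**Figure D1:**
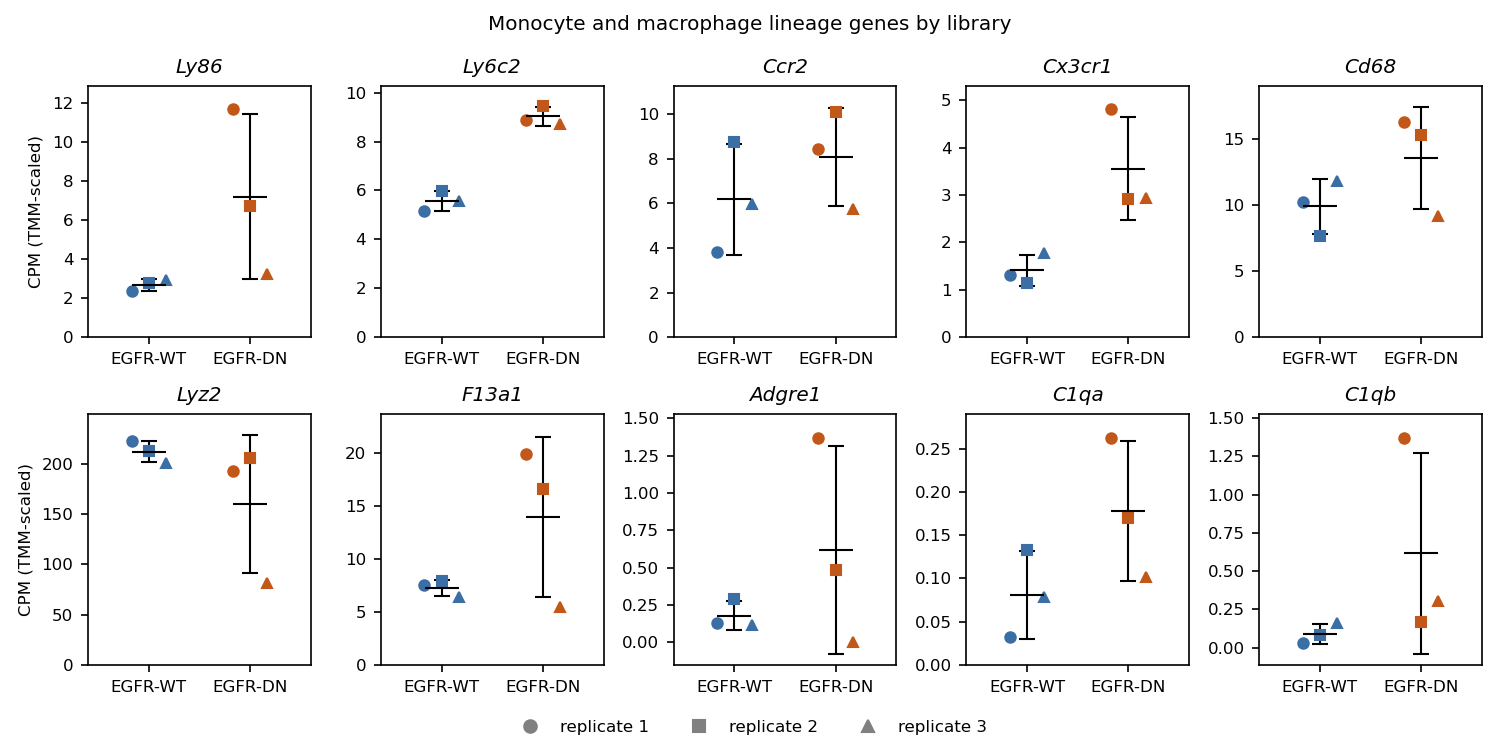
TMM-scaled CPM (vertical axis, linear) of the 10 genes in each EGFR-WT and EGFR-DN library; coloured points are libraries, with a shape for each replicate number, and black bars are mean ± SD (n = 3). Ly86, Ly6c2, Cx3cr1 and C1qb show no overlap between groups, while the lowest Lyz2 value is that of EGFR-DN replicate 3, at 80.9 CPM.

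The comparison of EGFR-DN with EGFR-WT asks whether these lineage transcripts differ when the truncated receptor is made. Of the 10 genes, 9 had a higher mean in EGFR-DN, and Lyz2 had a lower one. The largest differences among the 7 genes abundant enough to test were those of Ly86, Cx3cr1 and F13a1. By edgeR's quasi-likelihood test over 19313 genes, 0 of the 7 passed an adjusted p of 0.05, and 3 had an unadjusted p under 0.05, all higher (Ly86, Ly6c2 and Cx3cr1). Over all genes, 0.00518% were called (1 gene, Egfr), 6.69% had an unadjusted p under 0.05, and 4.30% had one and were higher. The 7 tested genes each had at least 41 counts in every EGFR-WT library, so they did not depend on EGFR-DN to be tested. Their median log2 fold change (EGFR-DN minus EGFR-WT) was 0.70, beside 0.0099 over all genes tested. With DESeq2 2 of them, Ly6c2 and Cx3cr1, passed, where 0.775% of all genes were called and 0.569% were called higher. Without EGFR-DN replicate 3 edgeR tested 8 of the 10, since Adgre1 then passed the filter through its EGFR-DN counts. It called 1, F13a1 (0.286% of all genes were called, 0.231% higher), while of the same 7 genes 5 were higher at an unadjusted p under 0.05 (6.64% of all genes), 6 lay above 0 (48.9%) and the median was 0.72. DESeq2 without that library called 5, all higher (5.51% of all genes were called, 3.12% higher): Ly86, Ly6c2, Cx3cr1, Cd68 and F13a1. In bulk RNA more cells of a type and more RNA per cell cannot be told apart.

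Among the receptors and surface proteins, Ly6c2 had the tightest values in TMM-scaled CPM. It stood at 8.90, 9.47 and 8.72 CPM in EGFR-DN replicates 1 to 3 and at 5.15, 5.97 and 5.56 CPM in EGFR-WT replicates 1 to 3. All 3 EGFR-DN libraries lay above all 3 EGFR-WT libraries, EGFR-DN replicate 3 included. The mean was 9.03 ± 0.393 against 5.56 ± 0.411 CPM (SD, n = 3 each), and the log2 difference was 0.70 (SE 0.19, edgeR adjusted p = 0.690). DESeq2 gave an adjusted p of 0.0479, and without EGFR-DN replicate 3 the value was 0.72 (edgeR adjusted p = 0.128). The tightness within EGFR-DN depended on the scaling. EGFR-DN replicate 3 had 172 Ly6c2 counts among 24073204. Per total count it lay further below EGFR-DN replicates 1 and 2, but still above all EGFR-WT libraries. With library size alone in place of TMM, the log2 fold change was 0.59 (SE 0.22, edgeR adjusted p = 0.760). Summed with Ly6c1, the log2 fold change was 0.65 (edgeR adjusted p = 0.689). Ly6c1 alone was at 0.543 ± 0.0599 CPM in EGFR-DN and 0.559 ± 0.258 CPM in EGFR-WT.

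Cx3cr1, the receptor for fractalkine, was at 4.81, 2.92 and 2.94 CPM in EGFR-DN and at 1.30, 1.15 and 1.78 CPM in EGFR-WT (replicates 1 to 3 in each). The groups did not overlap, and EGFR-DN replicate 1 was highest. The log2 fold change was 1.34 (SE 0.34, edgeR adjusted p = 0.690), and DESeq2 gave an adjusted p of 0.0477. With Gm33858 added it was 1.29, and without EGFR-DN replicate 3 it was 1.46 (edgeR adjusted p = 0.128).

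Ly86 was at 11.7, 6.72 and 3.25 CPM in EGFR-DN and at 2.35, 2.77 and 2.96 CPM in EGFR-WT. In TMM-scaled CPM the EGFR-DN libraries were spread widely but all lay above EGFR-WT, replicate 3 by the smallest margin. That margin depended on the scaling. EGFR-DN replicate 3 had 64 Ly86 counts among 24073204, and EGFR-WT replicate 3 had 75 among 24428225. Per total count, EGFR-DN replicate 3 thus lay below EGFR-WT replicate 3. The log2 fold change was 1.43 (SE 0.45, edgeR adjusted p = 0.690). With library size alone in place of TMM, it was 1.37 (edgeR adjusted p = 0.760). It was 1.77 without EGFR-DN replicate 3 (adjusted p = 0.0593) and 0.89 without EGFR-DN replicate 1 (adjusted p = 0.533). In TMM-scaled CPM, Ly86, Ly6c2 and Cx3cr1 were the 3 of 7 tested genes whose groups did not overlap in this direction. That pattern was shown by 9.21% of all tested genes.

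Ccr2, the receptor by which classical monocytes leave the marrow, was at 8.46, 10.1 and 5.73 CPM in EGFR-DN and at 3.81, 8.77 and 5.99 CPM in EGFR-WT. The groups overlapped, and the EGFR-WT libraries alone spanned more than the difference between means. The log2 fold change was 0.39 (SE 0.36, edgeR adjusted p = 0.722). It was 0.58 without EGFR-DN replicate 3, 0.13 without EGFR-WT replicate 1 and 0.72 without EGFR-WT replicate 2.

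**Figure D2:**
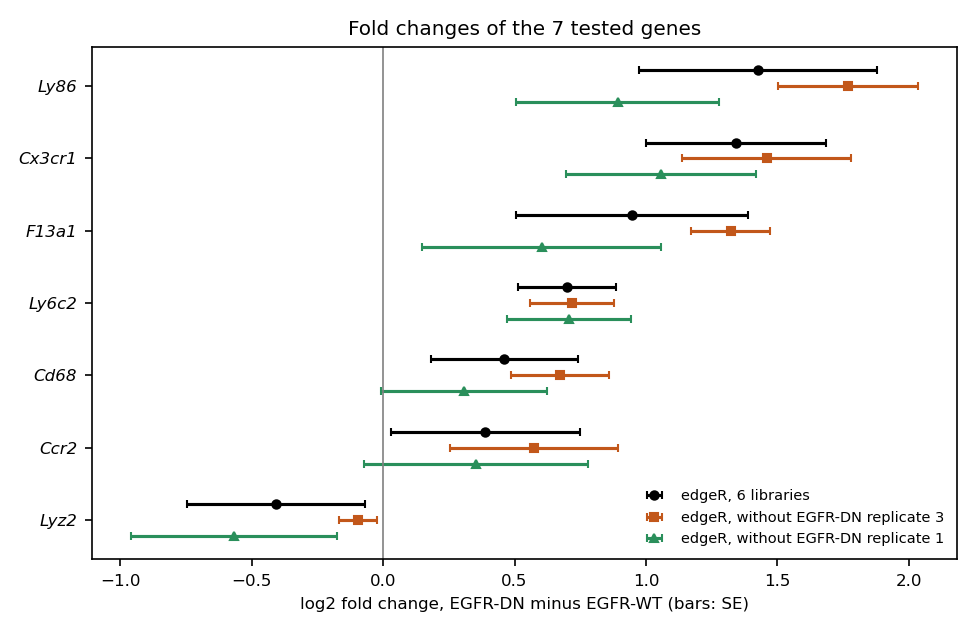
Log2 fold changes (horizontal axis, EGFR-DN minus EGFR-WT, bars are SE) of the 7 tested genes from edgeR with all 6 libraries (black), without EGFR-DN replicate 3 (orange) and without EGFR-DN replicate 1 (green). Ly6c2 stays between 0.70 and 0.72, whereas Ly86 moves from 0.89 to 1.77.

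The intracellular and secreted products divided. F13a1 was at 19.9, 16.6 and 5.43 CPM in EGFR-DN and at 7.53, 7.89 and 6.39 CPM in EGFR-WT. EGFR-DN replicates 1 and 2 lay above all EGFR-WT libraries and replicate 3 below all of them. With all 6 libraries the log2 fold change was 0.95 (SE 0.44, edgeR adjusted p = 0.690). Without EGFR-DN replicate 3, F13a1 rose by 1.32 on the log2 scale (SE 0.15, edgeR adjusted p = 0.0441), and without EGFR-DN replicate 1 the value was 0.60 (adjusted p = 0.562).

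Cd68 was at 16.2, 15.3 and 9.13 CPM in EGFR-DN and at 10.2, 7.65 and 11.8 CPM in EGFR-WT. Here too replicates 1 and 2 of EGFR-DN lay above EGFR-WT and replicate 3 lay within it. The log2 fold change was 0.46 (SE 0.28, edgeR adjusted p = 0.690) and 0.67 without EGFR-DN replicate 3 (adjusted p = 0.193).

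Lyz2 was at 193, 205 and 80.9 CPM in EGFR-DN and at 223, 212 and 201 CPM in EGFR-WT. EGFR-DN replicate 2 lay inside the EGFR-WT range, replicate 1 just below it, and replicate 3 far below. The log2 fold change was -0.41 (SE 0.34, edgeR adjusted p = 0.709). Without EGFR-DN replicate 3 it was -0.10 (SE 0.07, adjusted p = 0.627), so in the remaining libraries lysozyme message did not share the direction of F13a1, Ly86 and Cx3cr1. Lyz1 was at 5.11 ± 2.14 against 6.61 ± 1.11 CPM, and the sum of both genes gave -0.41. Lyz2 made up 85.2% to 88.0% of the summed CPM of the 10 genes in EGFR-WT and 69.5% to 76.8% in EGFR-DN. The sum of the other 9 genes was 73.0 and 61.9 CPM in EGFR-DN replicates 1 and 2, 35.6 CPM in EGFR-DN replicate 3, and 30.5 to 34.8 CPM in EGFR-WT.

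The macrophage genes Adgre1, C1qa and C1qb did not pass the filter on low counts, and none averaged more than 0.399 CPM over the 6 libraries. Adgre1, the adhesion receptor gene, had 47, 17 and 0 counts in EGFR-DN replicates 1 to 3 and 4, 11 and 3 counts in EGFR-WT. The 0 in EGFR-DN replicate 3 allows up to 0.152 CPM at 3 counts. C1qb, the B chain of C1q, had 47, 6 and 6 counts in EGFR-DN and 1, 3 and 4 in EGFR-WT. C1qa, the A chain, had 9, 6 and 2 counts against 1, 5 and 2. C1qc, the remaining chain of the same complex, had 45, 9 and 1 counts against 4, 6 and 6. Adgre1, C1qb and C1qc were thus high in a single library, EGFR-DN replicate 1, and in the others lay at 17 counts or fewer. The 4 genes summed to 148 counts (4.32 CPM) there, to 38 and 9 counts in the other EGFR-DN libraries, and to 10, 25 and 15 counts in EGFR-WT.

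By library, EGFR-DN replicate 1 was the highest library for 7 of the 10 genes, and for 4 of the 7 tested ones, whereas 14.1% of all tested genes were highest there. EGFR-DN replicates 1 and 2 both exceeded every EGFR-WT library for 5 of the 7 tested genes (16.3% of all genes tested without replicate 3). EGFR-DN replicate 3 was the lowest library for 2 of the 7, Lyz2 and F13a1, where 38.5% of all genes were lowest there. In TMM-scaled CPM it exceeded every EGFR-WT library for Ly86, Ly6c2, Cx3cr1 and C1qb. This library also had the rRNA-like share of 25.4%, and the part of that share in its low values was not tested. With the rRNA-like genes removed from the fit of all 6 libraries, the log2 fold change was -0.41 for Lyz2 and 0.94 for F13a1.

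**Figure D3:**
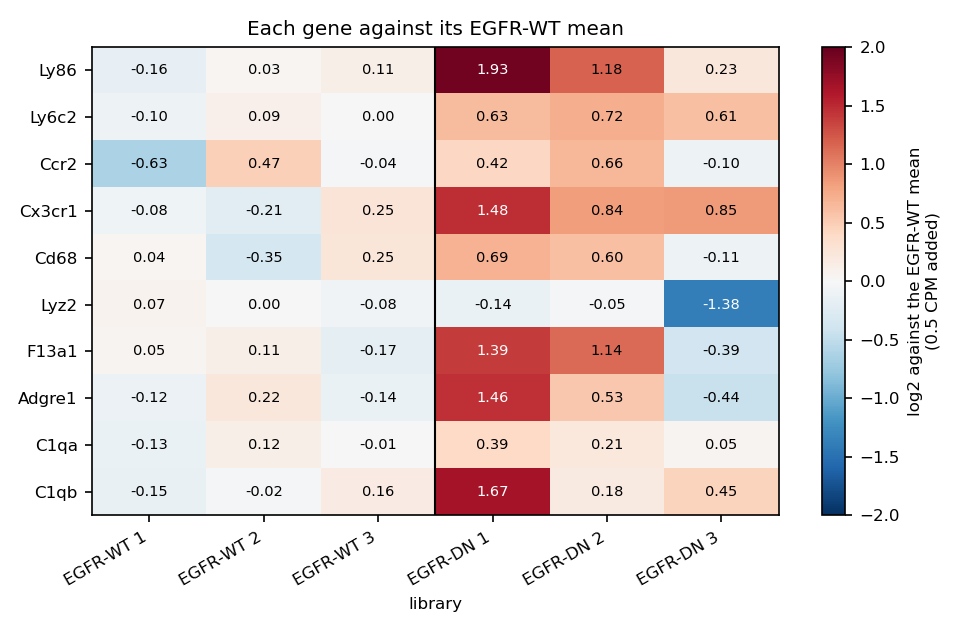
Each of the 10 genes (rows) in each library (columns) as log2 of CPM plus 0.5 against the EGFR-WT mean treated in the same way; red is higher and blue lower. EGFR-DN replicates 1 and 2 are above 0 for every gene except Lyz2, and EGFR-DN replicate 3 has Lyz2 at -1.38.

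The upstream sequence of the 3 tested genes whose groups did not overlap in TMM-scaled CPM is shown to set them side by side. C1qb, which did not overlap either, was not tested, had 1 to 47 counts, and is not printed. The 250 bases before the start site come from the RefSeq promoter table (GRCm38.p6, an earlier build than the mm39 named for the counts), in which 8 of the 10 genes were found. Capitals mark the letters GAGGAA, a core that PU.1 can bind, and TTGCNNAA, a core of C/EBP sites, on either strand.
Ly86 (chr13:37345095-37345344, + strand): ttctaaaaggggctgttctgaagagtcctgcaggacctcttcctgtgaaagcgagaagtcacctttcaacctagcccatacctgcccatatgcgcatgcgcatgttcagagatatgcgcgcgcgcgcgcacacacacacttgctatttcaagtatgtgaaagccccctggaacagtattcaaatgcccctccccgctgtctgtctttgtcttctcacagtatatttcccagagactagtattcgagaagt
Ly6c2 (chr15:75111972-75112221, - strand): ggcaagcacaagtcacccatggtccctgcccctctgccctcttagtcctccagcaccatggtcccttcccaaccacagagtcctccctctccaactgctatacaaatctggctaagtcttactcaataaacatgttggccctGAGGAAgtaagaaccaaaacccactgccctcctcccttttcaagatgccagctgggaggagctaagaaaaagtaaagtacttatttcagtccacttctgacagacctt
Cx3cr1 (chr9:120068297-120068546, - strand): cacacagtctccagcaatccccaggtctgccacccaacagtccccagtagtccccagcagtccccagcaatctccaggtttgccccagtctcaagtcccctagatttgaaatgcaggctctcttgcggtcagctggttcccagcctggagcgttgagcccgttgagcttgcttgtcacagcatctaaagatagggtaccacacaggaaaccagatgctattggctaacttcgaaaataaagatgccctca

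Ly6c2 held 1 match to GAGGAA, which begins 108 bases before its start site, and Ly86 and Cx3cr1 held none in this window. The table lists another Ly6c2 start site, whose window overlaps the printed one and holds 2 matches, 1 of them the match printed here. Of the 10 promoters listed for the 8 genes, 5 had GAGGAA (those of Ly6c2, and 1 each of Cd68, F13a1 and C1qb), beside 23.3% of the 32851 promoters in the table. TTGCNNAA was found in 1 of the 10, that of Cd68, and in 9.56% of all promoters. The matches to the 2 motifs do not overlap in the Cd68 promoter, the only one that holds both, and a match is a description only.

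Cd180 was the partner gene with the smallest p. It encodes RP105, the Toll-like protein that the Ly86 product binds. Cd180 was at 21.2, 15.97 and 40.5 CPM in EGFR-DN and at 5.46, 10.3 and 6.74 CPM in EGFR-WT. The groups did not overlap, and EGFR-DN replicate 3, where Ly86 was lowest of the EGFR-DN libraries, had the highest Cd180. The log2 fold change was 1.78 (SE 0.40, edgeR adjusted p = 0.690; DESeq2 adjusted p = 0.00806), and 1.30 without EGFR-DN replicate 3 (edgeR adjusted p = 0.110). Of the 17 ligands, co-receptors and partner subunits, 10 were tested and 0 passed by edgeR, with 1 at an unadjusted p under 0.05, and the median log2 fold change was -0.15 (0.0015 without EGFR-DN replicate 3). The complement protease genes C1ra (15.0 ± 6.76 against 23.2 ± 3.18 CPM) and C1rb (0.635 ± 0.157 against 1.23 ± 0.501 CPM) were not called. The CCR2 ligand genes Ccl7, Ccl8 and Ccl12 were at 0 in at least 1 library. Among 15 tested relatives of the 10 genes 0 passed and 1 had an unadjusted p under 0.05. That was Tgm2, a transglutaminase of the factor XIII A family, at 119 ± 22.3 against 211 ± 68.2 CPM (log2 fold change -0.82, SE 0.27, edgeR adjusted p = 0.690), opposite in sign to F13a1. Every EGFR-DN library lay below every EGFR-WT library for Tgm2 and C1rb, as for 8.72% of all tested genes.

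Of 25 other monocyte genes 21 were tested and 0 passed by edgeR. Higher values with an unadjusted p under 0.05 were found for 7 (4.30% of all tested genes) and lower ones for 0 (2.40%). A log2 fold change above 0 was found for 17 (51.0% of all tested genes), and the median was 0.57. By DESeq2 2 passed, both higher. With EGFR-DN replicate 3 left out the list median stood at 0.81. Of 22 tested, 13 were then higher at an unadjusted p under 0.05 (6.64% of all genes), and 1 passed (0.231% were called higher). Itgam, the integrin chain CD11b, was at 66.5, 61.7 and 47.3 CPM in EGFR-DN and at 20.2, 29.4 and 23.6 CPM in EGFR-WT, with no overlap (log2 fold change 1.26, SE 0.21, edgeR adjusted p = 0.590; DESeq2 adjusted p = 0.000239). The gene that passed was Itgam, which was higher by 1.39 on the log2 scale (edgeR adjusted p = 0.0388). Mpeg1, the pore-forming perforin-2 of macrophages, was at 31.5, 15.3 and 14.5 CPM against 5.91, 6.16 and 8.08 CPM (1.61, SE 0.34, edgeR adjusted p = 0.690; DESeq2 adjusted p = 0.00551). Plac8, the most abundant of the list, was at 485 ± 265 against 326 ± 76.3 CPM, with overlapping groups.

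Of 20 other genes of tissue macrophages 10 were tested, 0 passed by edgeR, 2 were higher at an unadjusted p under 0.05, and the median log2 fold change was -0.13 (0.25 over 12 tested without EGFR-DN replicate 3). Cd163, the haemoglobin scavenger receptor, was at 5.92, 2.87 and 6.09 CPM in EGFR-DN and at 1.56, 2.93 and 2.01 CPM in EGFR-WT. Hmox1, the haem-degrading enzyme, was at 6.04, 3.06 and 2.03 CPM in EGFR-DN, again highest in replicate 1, and at 1.72, 1.33 and 2.05 CPM in EGFR-WT. The groups overlapped for both genes. Timd4, Marco, Vsig4, Siglec1, Cd5l, Clec4f and Folr2 were at 0 in at least 1 library.

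Among 18 transcription factors of myeloid fate, 16 were tested and 0 passed by edgeR, with 4 higher and 1 lower at an unadjusted p under 0.05 (2.40% of all genes were lower). Irf8, which directs monocyte and dendritic cell fate, was at 64.7, 50.7 and 35.2 CPM in EGFR-DN and at 15.95, 23.0 and 25.8 CPM in EGFR-WT (log2 fold change 1.22, SE 0.28, edgeR adjusted p = 0.690; DESeq2 adjusted p = 0.0196). Spi1, the gene of PU.1, was at 78.8, 77.4 and 120 CPM against 51.4, 59.5 and 55.4 CPM (0.73, SE 0.21, edgeR adjusted p = 0.690; DESeq2 adjusted p = 0.174). Klf4, a factor of monocyte maturation, had the opposite sign, at 4.99, 5.50 and 6.80 against 8.99, 7.81 and 10.3 CPM (-0.65, SE 0.22, edgeR adjusted p = 0.690). None of these 3 genes overlapped between groups. Without EGFR-DN replicate 3, Irf8 rose by 1.42 (edgeR adjusted p = 0.0488), Spi1 was higher by 0.49 and Klf4 was at -0.79 on the log2 scale.

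Markers of other cell types were read in the same libraries. Over all tested genes, 4.30% were higher and 2.40% lower at an unadjusted p under 0.05 by edgeR with all 6 libraries. The 16 neutrophil granule genes summed to 899, 906 and 1437 CPM in EGFR-DN and to 404 to 584 CPM in EGFR-WT. Of these, 10 were tested, 0 passed by edgeR and 6 were higher at an unadjusted p under 0.05, with a median log2 fold change of 1.67 (1.46 without EGFR-DN replicate 3, where 2 of 13 passed). Mpo, the myeloperoxidase gene, made up most of that sum, with 1261 CPM in EGFR-DN replicate 3 (DESeq2 adjusted p = 0.0250). The 12 genes of multipotent progenitors had 7 of 12 higher at an unadjusted p under 0.05, with a median log2 fold change of 0.89 (0.85 without EGFR-DN replicate 3). The 15 HSC identity genes had 4 lower at an unadjusted p under 0.05, with a median of -0.30 (-0.65 without EGFR-DN replicate 3, with 11 lower). In the fit without that library, 2714 of 19919 genes had an unadjusted p under 0.05, and 1322 of these were higher. The 14 dendritic cell genes summed to 704 to 878 CPM in EGFR-DN and 555 to 941 CPM in EGFR-WT, with a median of 0.08. The 8 B lineage genes in the table summed to 50.9 to 70.1 against 36.5 to 47.8 CPM, and the 10 T and NK genes to 175 to 266 against 141 to 172 CPM. Neither sum overlapped between groups. Of the B lineage genes 6 were tested and 3 were higher at an unadjusted p under 0.05, with a median log2 fold change of 1.09 (0.96 without EGFR-DN replicate 3). Of the T and NK genes 7 were tested, with 2 higher, 1 lower and a median of 0.52. Nkg7 made up most of the T and NK sum (226 of 266 CPM in EGFR-DN replicate 1). Erythroid (379 to 813 against 265 to 427 CPM), megakaryocyte (1030 to 1783 against 922 to 1418 CPM), and mast cell and basophil genes (235 to 386 against 298 to 364 CPM) overlapped between groups. The sum of stromal and endothelial genes (136 to 218 against 82.7 to 108 CPM) did not, and Pecam1 and Pdgfrb made up most of it. As medians of log2 against the EGFR-WT mean, the B lineage, T and NK, and stromal lists all overlapped between groups. The B lineage list was at 0.16, 0.79 and 0.50 in EGFR-DN and -0.36, 0.06 and 0.20 in EGFR-WT. The stromal list was at -0.18, 0.02 and 0.44 in EGFR-DN and -0.30, 0.18 and -0.04 in EGFR-WT. The T and NK list was at 0.23, 0.04 and 0.05 against -0.36, 0.10 and 0.10. The part of any of these in the values of the monocyte genes was not tested.

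**Figure D4:**
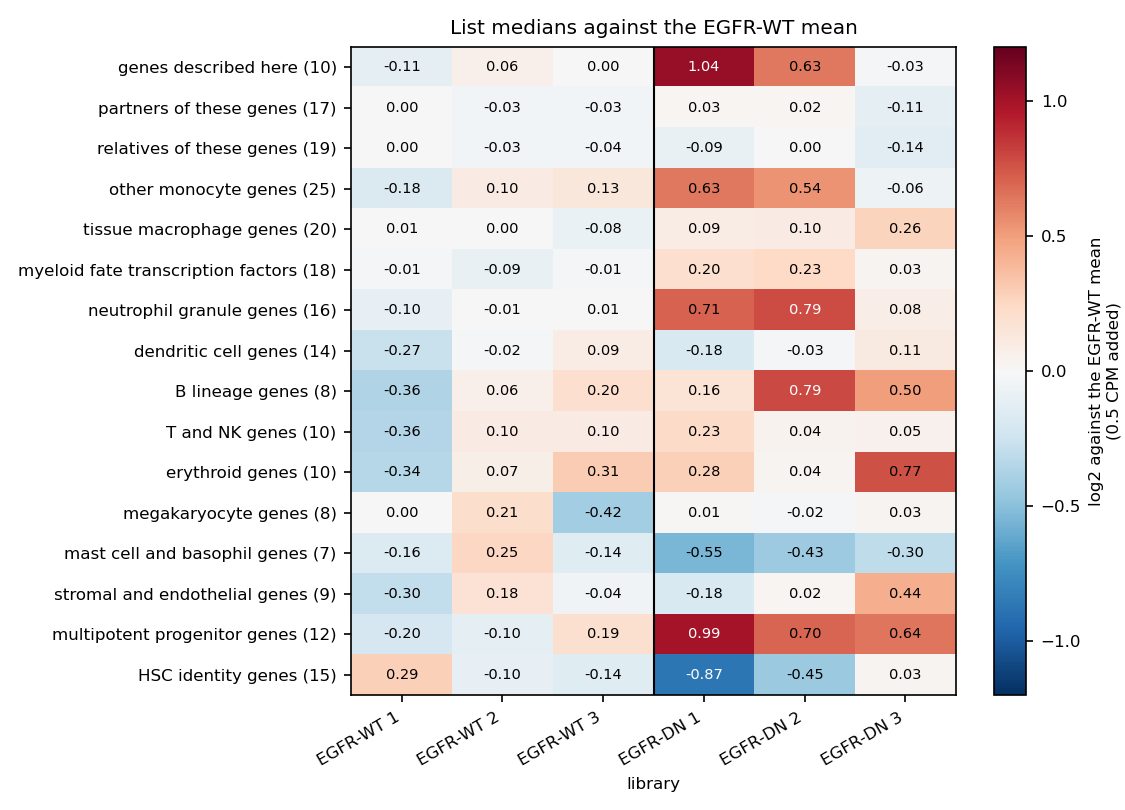
Median over the genes of each list (rows, number of genes in parentheses) of log2 CPM plus 0.5 against the EGFR-WT mean, by library (columns); red is higher and blue lower. The 10 genes described here are at 1.04 and 0.63 in EGFR-DN replicates 1 and 2 and at -0.03 in replicate 3, and the neutrophil list at 0.71, 0.79 and 0.08.

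The genes most like the mean profile of the 7 tested genes over the 6 libraries, by the root mean square difference of centred log2 CPM, were Emb (0.107), Myo1f (0.117) and Spns3 (0.121). Emb, a membrane glycoprotein gene, was at 178 ± 63.8 CPM in EGFR-DN and at 115.4 ± 8.08 CPM in EGFR-WT (SD, n = 3 each), with overlapping groups. This profile was 0.66, 0.47 and -0.30 in EGFR-DN replicates 1 to 3 and -0.38, -0.24 and -0.21 in EGFR-WT, so EGFR-DN replicate 3 lay among the EGFR-WT libraries. Of the 7 genes, Cd68 lay closest to it (0.201) and Lyz2 farthest (0.568).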

How the data were processed

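Libraries began with 10 ng of RNA, SMART-Seq amplification primed with oligo(dT) and Nextera XT, and were read as single 75-base reads, per the labels' protocols. The values that the authors deposited are unscaled estimated counts for each gene symbol, 79.4% of them whole numbers. Per the submitters' processing notes, the tools and build were DRAGEN, DESeq2 1.40.2, R 4.3.1 and mm39; annotation and strand setting: not given in the sources used here. As the design had assumed whole counts, values were rounded. Genes kept by filterByExpr (19313) were compared between EGFR-DN and EGFR-WT by two-sided quasi-likelihood testing in edgeR 4.0.16 (R 4.3.3) with TMM scaling, Benjamini-Hochberg adjustment over all genes and a threshold of 0.05. SEs were derived from the fold change and its F statistic. DESeq2 1.42.0, limma 3.58.1 and other settings were alternatives, including the replicate block, stricter and absent filters and each library left out. The scripts were tested on simulated data. Floors of 3 counts cover counting error only, since PCR copies are not independent molecules. The genes and lists were chosen with earlier results of these data known. The text names all 10 genes, the sort and receptor checks, the copies Lyz1, Ly6c1 and C1qc, of each other list genes called, up to 3 with the smallest p and the most abundant (not all are printed), and the 3 most like profiles among genes of at least 4 CPM. Genes named for being at 0, and Ccl7, Ccl8 and Ccl12 among them, were chosen after their values were seen. Some results are not reported here.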

Additional observations from a re-analysis of the deposited data

How the results depend on the processing

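All 10 scaling, test, filter, block and library choices were compared with the fit given above, as were the 6 fits that leave out a library. Over these and the alternatives added after seeing the data, no tested gene of the 10 changed sign, and over the same 7 genes the median log2 fold change stayed between 0.59 (library size alone) and 0.75 (without EGFR-WT replicate 2). Without EGFR-DN replicate 3 that median was 0.72; over the 8 genes tested there it was 1.02, because Adgre1 had entered. The number of genes called over the whole table was 135 by DESeq2, 0 by limma-voom (1187 at an unadjusted p under 0.05), 188 by limma-voom with library quality weights, 884 by DESeq2 without EGFR-DN replicate 3 (added after seeing the data), and 0 to 57 when a library was left out, with 0 without EGFR-WT replicate 1, 2 or 3. Of the 10 genes, 2 were called by DESeq2, 2 by limma-voom with quality weights (Ly86 and F13a1), 5 by DESeq2 without EGFR-DN replicate 3, and 0 to 1 when a library was left out. The cause of these differences was not tested. The replicate number as a block gave 1 gene called, 0 of the 10 and a median of 0.70. The labels give no pairing, and deviations of same-numbered libraries correlated across genes at -0.02, 0.05 and 0.06, with replicate 1 of EGFR-DN closest to another number (0.10). At a mean of at most 0.399 CPM, differences in Adgre1, C1qa and C1qb were not testable with the filter used; with no filter C1qb had a log2 fold change of 2.76 on 1 to 47 counts.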
